A study of Mus musculus with 6 samples.

Results

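The brain spots described here touched a Cst7-rich spot of a 5xFAD section but held no Cst7 UMI themselves. Cst7 encodes cystatin F, an inhibitor of lysosomal cysteine proteases that microglia switch on around amyloid plaques, so Cst7 UMIs served as the marker of such places. A ring spot was a spot under the tissue mask with a barcode in the matrix, at least 4000 UMIs and 0 Cst7 UMIs, touching at least 1 spot with 3 or more Cst7 UMIs on the hexagonal array. There were 523 ring spots among 14524 tissue spots of the 6 sections, 309 of them in the E4 5xFAD section and 214 in the E3 5xFAD section. The members were thus chosen by measured Cst7 and total UMIs, and Cst7 itself is used below only to place spots. They were split by the vesicular glutamate transporter with more UMIs. Slc17a7 marks excitatory neurons of cortex and hippocampus, and Slc17a6 marks those of thalamus and hypothalamus. The ring held 259 Slc17a7-dominant, 36 Slc17a6-dominant and 14 tied spots in E4 5xFAD, and 177, 27 and 10 such spots in E3 5xFAD. Tied spots were not analysed further.

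Each section was 1 coronal brain section of 1 female mouse that carried human APOE4 or APOE3 on both alleles in place of mouse Apoe. The E4 5xFAD and E3 5xFAD mice were 12 months old and also carried the 5xFAD transgenes, which express human APP with familial Alzheimer's disease mutations, among others, under the neuronal Thy1 promoter. The E4 aged and E3 aged mice (24 months) and the E4 young and E3 young mice (3 months) carried human APOE without 5xFAD and served as background. With 1 mouse per genotype and age, genotype cannot be told apart from mouse, section and library, and no result below is a test of genotype.

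Microglia near amyloid are known to pass into a disease-associated state (DAM), in which the lipid receptor TREM2 and its adaptor TYROBP drive genes for lysosomal enzymes, lipid handling and antigen presentation. Microglia also make C1q, the first component of the classical complement pathway, and reactive astrocytes around plaques make the filament protein GFAP and complement C4. A Visium spot covers several cells of different types. A lower UMI share of a gene can therefore come from fewer cells of a type or from less RNA per cell, and these cannot be told apart.

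In E4 5xFAD 382 of 2660 spots were Cst7-rich, with up to 15 Cst7 UMIs, and in E3 5xFAD 174 of 2773, with up to 20. Total UMIs were 32076598 in E4 5xFAD and 29626455 in E3 5xFAD, with medians of 12399.5 and 10403 per spot. The tissue mask and the matrix covered visibly different spots in all sections but E3 5xFAD. In E4 5xFAD 610 masked spots had no barcode and 672 barcodes lay outside the mask, 9 of them Cst7-rich, while in E3 5xFAD 2 masked spots had no barcode and 6 barcodes lay outside, 1 of them Cst7-rich. Alternatives that required complete neighbourhoods or counted distances over every barcode were run for this reason. No spot of the young sections was Cst7-rich.

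**Figure D1:**
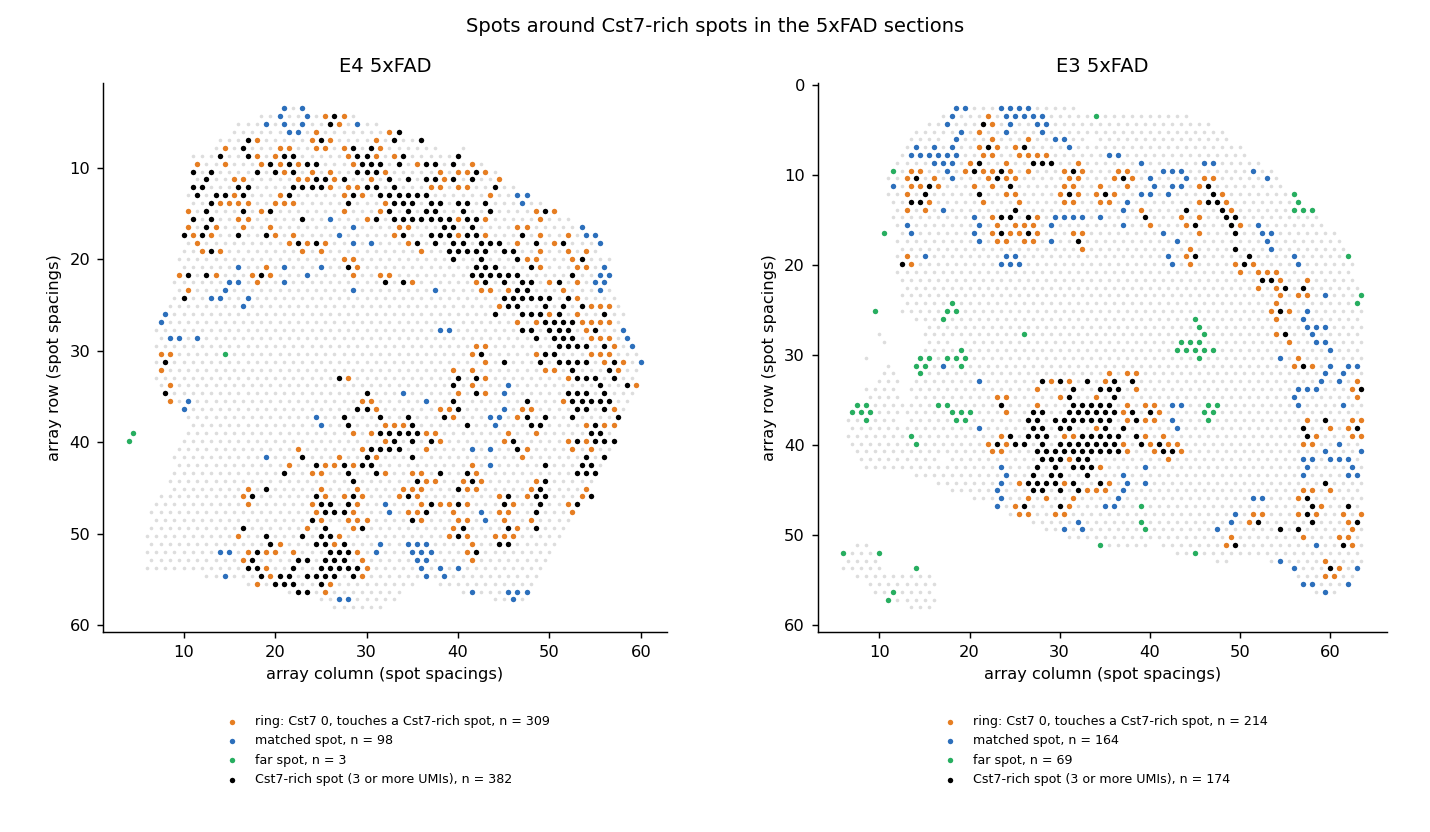
Positions of the spots in the E4 5xFAD and E3 5xFAD sections, with array column and row in spot spacings. Orange points are ring spots (309 and 214), blue points matched spots (98 and 164), green points far spots (3 and 69), black points Cst7-rich spots (382 and 174) and grey points all other spots. The orange points follow the black ones in both sections, and E4 5xFAD has only 3 green points.

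Not every spot beside a Cst7-rich spot was free of Cst7. Of the Slc17a7-dominant spots that touched a Cst7-rich spot without being one, 259 of 685 had 0 Cst7 UMIs in E4 5xFAD and 177 of 323 in E3 5xFAD. Most ring spots had a single Cst7-rich neighbour, namely 151 of the 259 Slc17a7-dominant ring spots in E4 5xFAD and 144 of the 177 in E3 5xFAD. A count of 0 for Cst7 does not mean that the gene was silent, because at most 20 Cst7 UMIs were counted in any spot.

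Complement levels were higher in the ring than at any longer distance from Cst7-rich spots, though they did not fall at every step. The complement list (C1qa, C1qb, C1qc, C3, C4b, the receptors C3ar1, C5ar1, Itgam and Itgb2, and others) was summed and given in CPM, its UMI count scaled by the total UMIs of the same spots. In Slc17a7-dominant Cst7-free spots of E4 5xFAD it stood at 889.7 CPM at 1 array step, 822.7 at 2, 732.8 at 3, 584.1 at 4, 721.4 at 5 to 6 and 454.5 at 7 or more steps. The E3 5xFAD levels were 834.4, 738.6, 682.3, 555.7, 506.2 and 547.3 CPM at the same steps. Cst7-rich Slc17a7-dominant spots themselves held 1508 CPM in E4 5xFAD and 1911 CPM in E3 5xFAD, a difference that the choice of spots by Cst7, itself a microglial gene, bears on directly. The complement level of ring spots in both sections stood above that of all Slc17a7-dominant Cst7-free spots of the background sections, at 342.1 CPM in E4 aged, 349.3 in E3 aged, 226.6 in E4 young and 279.0 in E3 young. These levels describe the sections and were not tested, because the steps share tissue regions as well as distance.

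The Slc17a6-dominant spots had a similar slope with fewer spots. Complement was at 1132, 755.2, 945.5, 743.8, 529.5 and 398.5 CPM over the 6 distance bins in E4 5xFAD, with 36, 21, 14, 6, 12 and 4 spots. In E3 5xFAD it was at 813.1, 769.0, 611.2, 469.4, 414.8 and 462.3 CPM, with 20 or more spots in each bin. Cst7-rich Slc17a6-dominant spots held 1374 CPM in E4 5xFAD and 2154 CPM in E3 5xFAD. The ring of both classes was thus higher in complement than the spots 4 or more steps away, in both sections.

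**Figure D2:**
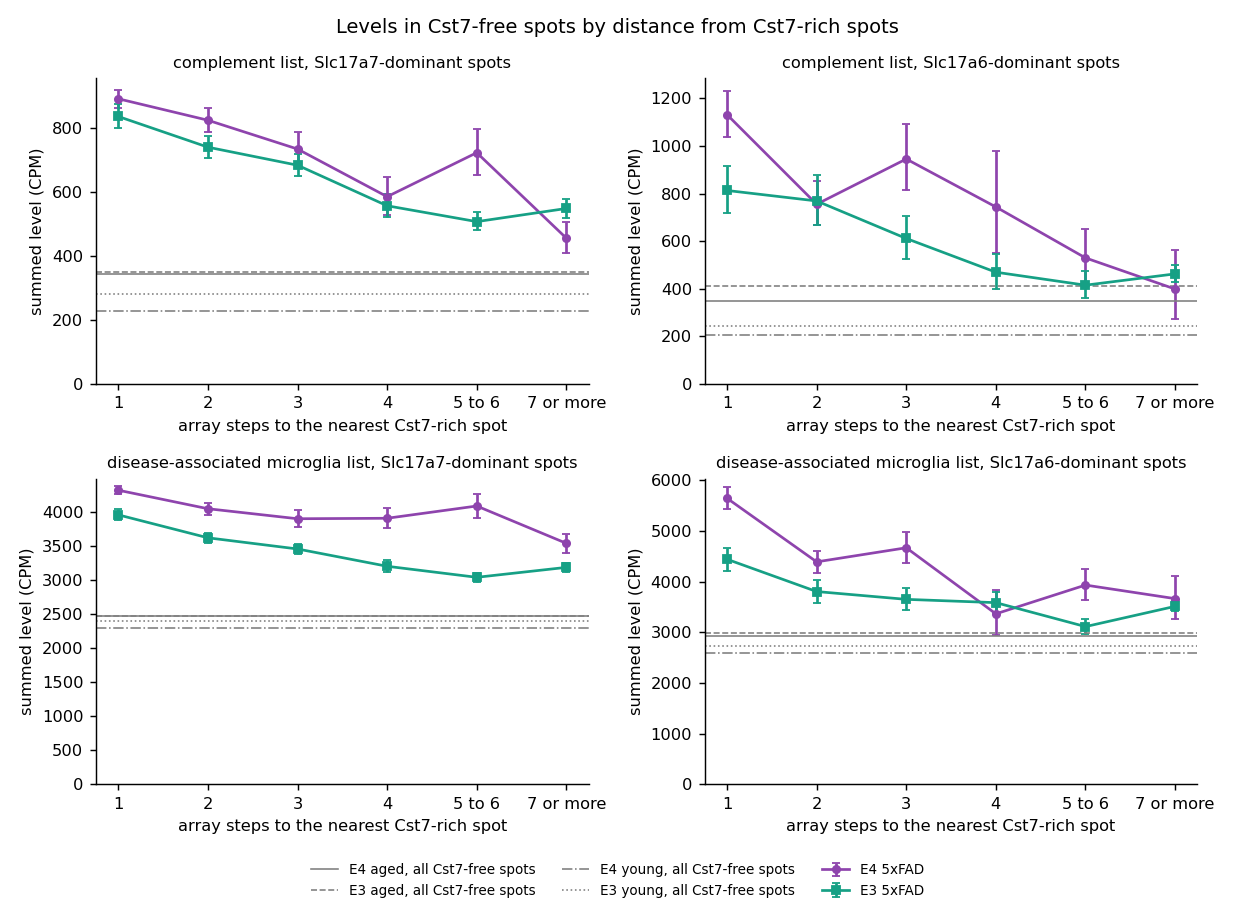
Summed level in CPM of the complement list (top) and the disease-associated microglia list (bottom) in Cst7-free spots against array steps to the nearest Cst7-rich spot, for Slc17a7-dominant (left) and Slc17a6-dominant (right) spots. Points are 1 section each with exact 95% Poisson intervals, and grey lines are the levels over all Cst7-free spots of the aged and young sections. Ring spots (1 step) are the highest point of each coloured line, and every coloured point lies above the grey lines of its panel except E4 5xFAD complement in Slc17a6-dominant spots at 7 or more steps (398.5 CPM, against 411.0 in E3 aged).

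Single genes had the same order of levels over the first 4 steps. Tyrobp in Slc17a7-dominant spots of E4 5xFAD stood at 259.3, 217.5, 181.2 and 162.1 CPM at 1, 2, 3 and 4 steps, and in E3 5xFAD at 249.2, 211.6, 163.1 and 124.4 CPM. Trem2 stood at 135.1 CPM at 1 step and 61.33 CPM at 4 steps in E4 5xFAD, and at 110.9 and 62.83 CPM in E3 5xFAD. Gfap was at 319.2 CPM in the ring and 188.4 CPM at 4 steps in E4 5xFAD, and at 189.5 and 111.0 CPM in E3 5xFAD. In the background sections Trem2 was between 20.60 and 28.43 CPM and Gfap between 42.83 and 85.99 CPM in Slc17a7-dominant spots. Serpina3n, a protease inhibitor of reactive astrocytes, was at 150.5 CPM in the ring of E4 5xFAD, but the E4 aged section without 5xFAD held 170.8 CPM and the E4 young section 126.9 CPM. The E3 sections had less Serpina3n, with 52.46 CPM in the ring of E3 5xFAD against 33.41 CPM in E3 aged and 21.47 CPM in E3 young.

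Thy1 and human APP also had higher levels in the Slc17a7-dominant ring than farther away. Thy1, a neuronal surface protein, was at 6180 CPM at 1 step and 2124 CPM at 7 or more steps in E4 5xFAD, and at 5120 and 2262 CPM in E3 5xFAD. The background sections held 751.3 to 841.9 CPM of Thy1. Whether the UMIs above that level belong to the endogenous gene or to the Thy1 sequence of the cassette was not tested. Human APP stood at 117.1 CPM in the ring and 38.10 CPM at 7 or more steps in E4 5xFAD, and at 104.9 and 34.31 CPM in E3 5xFAD, against at most 0.3735 CPM in the background sections. Mouse App stayed between 925.3 and 1135 CPM over those distances in E4 5xFAD and between 1109 and 1236 CPM in E3 5xFAD. In Cst7-rich spots of E3 5xFAD human APP was at 71.28 CPM and Thy1 at 4056 CPM, both below their ring, while in E4 5xFAD the Cst7-rich spots had 124.5 and 7150 CPM, above the ring.

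Complement was also set against the number of Cst7-rich neighbours. In E3 5xFAD, Slc17a7-dominant ring spots with 1, 2 and 3 or more such neighbours held 774.1 CPM (95% Poisson interval 735.5 to 814.3, 144 spots), 1034 CPM (916.9 to 1163, 22 spots) and 1255 CPM (1082 to 1448, 11 spots). In E4 5xFAD the levels were 868.4 CPM (830.9 to 907.1, 151 spots), 894.4 CPM (844.6 to 946.4, 77 spots) and 967.0 CPM (887.0 to 1052, 31 spots), with intervals that overlap between neighbouring classes. These intervals cover counting error only. Region markers moved with the neighbour count in the same E3 5xFAD spots, with the thalamus list at 396.3, 806.1 and 2913 CPM, the myelin list at 3728, 4914 and 6241 CPM and Npy at 287.2, 242.9 and 73.82 CPM, and their part in the complement levels was not tested. The list of Fc receptors stood at 180.7, 250.3 and 167.8 CPM, without that order. At the edge of the rule, ring spots whose richest neighbour had 3 Cst7 UMIs held 934.6 CPM of complement in E4 5xFAD and 796.4 CPM in E3 5xFAD. Spots just outside it, with a richest neighbour of 2 Cst7 UMIs, held 759.5 CPM in E4 5xFAD and 612.8 CPM in E3 5xFAD.

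The rule set the ring against far spots, which have no Cst7-positive spot within 2 array steps. Far spots were 3 in E4 5xFAD (2 Slc17a7-dominant, 0 Slc17a6-dominant, 1 tied) and 69 in E3 5xFAD (33, 24 and 12). Ring and far spots lay in different regions. In E3 5xFAD the thalamus list was at 2918 CPM in Slc17a6-dominant ring spots and 282.4 CPM in far spots, and the hypothalamus list at 2084 CPM in ring and 10601 CPM in far spots. Among Slc17a7-dominant spots of E3 5xFAD the leptomeninges list was at 814.0 CPM in ring and 5392 CPM in far spots. In the edgeR quasi-likelihood test of Slc17a7-dominant spots, with the section as a block, 3 of 10598 genes were higher in the ring (0.0283%) and 21 lower (0.198%) at an adjusted p of at most 0.05. The higher genes were Vxn, Prkcd and Nr4a2, and the lower ones included Ttr and Ecrg4 of the choroid plexus, Pmch and Hcrt of the hypothalamus, Igf2 and Ptgds of the leptomeninges and Gh of the pituitary. No member of the microglial lists was called. With complete neighbourhoods these counts were 0 higher and 11 lower. Within E3 5xFAD, of 4965 Slc17a7-dominant genes with 100 or more UMIs, 579 were at least 1.5-fold higher in the ring (11.7%) and 235 lower (4.73%), among them 1 and 0 of 4 complement genes and 3 and 2 of 18 DAM genes. Of 1082 such genes in Slc17a6-dominant spots of E3 5xFAD, 154 were higher (14.2%) and 112 lower (10.4%), with both complement genes higher. Complement as a whole was at 813.1 CPM in that ring and 443.2 CPM in far spots. Within E4 5xFAD 2188 of 7057 genes were higher (31.0%) and 1718 lower (24.3%) against a library of 2 far spots, and these counts are not read further. The E4 5xFAD side of this test was a library of 2 spots, and Ttr and Enpp2 were lower in E3 5xFAD alone, while Vxn, Nr4a2, Ecrg4, Pmch and Hcrt had no UMI in those 2 spots.

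For this reason the ring was also set against matched spots, a comparison added once the numbers of far spots were known. A matched spot had 0 Cst7 UMIs and at least 4000 UMIs, lay at least 3 steps from any Cst7-rich spot, and shared the section, the class and 1 of 15 expression groups with its ring spot. The groups came from k-means on region genes without microglial, astrocyte plaque-response, mitochondrial or transgene members. Pairing gave 86 Slc17a7-dominant and 12 Slc17a6-dominant pairs in E4 5xFAD and 148 and 16 in E3 5xFAD, so 234 of the 436 Slc17a7-dominant ring spots and 28 of the 63 Slc17a6-dominant ones entered. Summed ring UMIs of the Slc17a7-dominant pairs were 1253582 in E4 5xFAD, against 1181119 in matched spots, and 1971382 in E3 5xFAD, against 2025668. The median log2 ratio of all genes with 100 or more UMIs was 0.0160 over 4824 genes in E4 5xFAD and 0.0116 over 6511 genes in E3 5xFAD.

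Against matched spots, the ring of Slc17a7-dominant spots had more complement, microglial and MHC class I RNA in both sections. Complement was at 950.1 CPM in the ring of E4 5xFAD and 751.0 CPM in matched spots, a log2 ratio of 0.34 (95% counting interval 0.213 to 0.466). In E3 5xFAD it was at 793.9 CPM in the ring and 626.0 CPM in matched spots, a log2 ratio of 0.34 (0.235 to 0.451). All 8 complement genes with 20 or more UMIs were above 0 in both sections, with a median log2 ratio of 0.365 in E4 5xFAD and 0.422 in E3 5xFAD. Spots overlapped widely all the same. Per 10000 UMIs, the lowest, median and highest complement value of ring spots in E4 5xFAD was 1.24, 9.0 and 48.8, against 1.31, 7.80 and 31.6 in matched spots. In E3 5xFAD these were 1.26, 7.77 and 35.5 in ring spots and 0.903, 5.57 and 32.3 in matched spots. The summed complement ratio was above 0 in 12 of 12 other settings in E3 5xFAD and in 11 of 12 in E4 5xFAD. The exception was Cst7-rich set at 2 or more UMIs, which left 57 pairs in E4 5xFAD and a log2 ratio of -0.172 (-0.349 to 0.005).

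The test across genes called few of these genes. With adjusted p at most 0.05 in edgeR, 14 of 11103 genes were higher in the ring (0.126%) and 18 lower (0.162%), with 711 at an unadjusted p under 0.05. Of the 8 complement genes tested, 1 was higher and none lower. Of 35 DAM genes 1 was higher, of 53 plaque-induced genes 4 were higher, and none of either list was lower. In single sections, 48 of 4824 genes were at least 1.5-fold higher in the ring of E4 5xFAD (0.995%) and 49 lower (1.02%), and in E3 5xFAD 52 of 6511 were higher (0.799%) and 41 lower (0.63%). None of the 4 complement genes with 100 or more UMIs and 1 of the DAM genes, in E3 5xFAD, was past that fold. The fit rests on 4 summed libraries, a ring and a matched library from each mouse, and has 1 residual degree of freedom, so its p-values borrow the spread across genes. DESeq2's Wald test on the same libraries called 0 genes higher and 1 lower, with 13 at an unadjusted p under 0.05, and edgeR without the section block called 0 in either direction, with 186. Of the 32 calls, 26 or more were kept under other scalings, without the filter on low counts, or at 8000 UMIs per spot. Complete neighbourhoods kept 18, pairs within 1.5-fold in UMIs 14, distances over every barcode 13, and 8 and 25 k-means groups 7 and 5. All spots at least 3 steps away kept 9, Cst7-rich at 2 or more UMIs 9, matched spots at least 4 steps away 8 and pairs by distance only 6. Matched spots free of any Cst7-positive neighbour kept 0, with 11 pairs in E4 5xFAD. Cst7-rich at 5 or more UMIs also kept 0, with 65 pairs in E4 5xFAD and 53 in E3 5xFAD.

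Tyrobp, the TREM2 adaptor, was the microglial gene called most often. It had 256.1 CPM in the ring of E4 5xFAD and 188.8 CPM in matched spots, and 238.4 CPM in the ring of E3 5xFAD and 161.9 CPM in matched spots. It rose by 0.49 ± 0.09 on the log2 scale (SE; edgeR adjusted p = 5.38e-05) and was called in 12 of 17 alternatives, with the same direction in all 17. Trem2 had 138.8 CPM in ring and 106.7 CPM in matched spots of E4 5xFAD, and 114.6 and 78.49 CPM in E3 5xFAD, at an edgeR adjusted p of 0.0504. Both genes were higher in the ring of each mouse, with counting intervals above 0.

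Among the 3 chains of C1q, C1qb rose by 0.38 ± 0.08 (SE, adjusted p = 0.00483), with 292.8 CPM in ring and 230.3 CPM in matched spots of E4 5xFAD and 262.8 and 195.5 CPM in E3 5xFAD. C1qa had 267.2 CPM in ring and 203.2 CPM in matched spots of E4 5xFAD and 214.6 and 178.2 CPM in E3 5xFAD (adjusted p = 0.111). C1qc had 196.2 and 156.6 CPM in ring and matched spots of E4 5xFAD and 179.6 and 150.1 CPM in E3 5xFAD (adjusted p = 0.400). The 3 genes lie side by side on chromosome 4. C4b, made by reactive astrocytes and oligodendrocytes, had 128.4 CPM in ring and 104.1 CPM in matched spots of E4 5xFAD and 75.58 and 52.82 CPM in E3 5xFAD (adjusted p = 0.311). All counting intervals of C1qa, C1qb and C1qc lay above 0, and that of C4b did so in E3 5xFAD alone.

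Ctss, the lysosomal protease cathepsin S, rose by 0.33 ± 0.09 (SE, edgeR adjusted p = 0.0394), with 270.4 CPM in ring and 225.2 CPM in matched spots of E4 5xFAD and 245.5 and 184.1 CPM in E3 5xFAD. Its call held in 4 of 17 alternatives. B2m, the light chain of MHC class I, had 347.8 CPM in ring and 271.8 CPM in matched spots of E4 5xFAD and 351.0 and 299.2 CPM in E3 5xFAD (adjusted p = 0.0936). Ctsd and Lyz2 were above matched spots in both sections at adjusted p of 0.169 and 0.204. The homeostatic genes P2ry12 and Cx3cr1 had no common direction, with log2 ratios of -0.12 and -0.11 in E4 5xFAD and 0.47 and 0.36 in E3 5xFAD, and all but the P2ry12 interval in E3 5xFAD included 0. Axl split the other way, at 0.86 in E4 5xFAD and -0.25 in E3 5xFAD. The homeostatic microglia list as a whole was higher in the ring of both sections. Its log2 ratios were 0.140 (0.039 to 0.241) in E4 5xFAD and 0.090 (0.009 to 0.171) in E3 5xFAD. Of its 16 members, 10 were above 0 in E4 5xFAD and 12 in E3 5xFAD, and none was called. Itgax was counted in at most 20 UMIs per library, too few for a comparison.

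**Figure D3:**
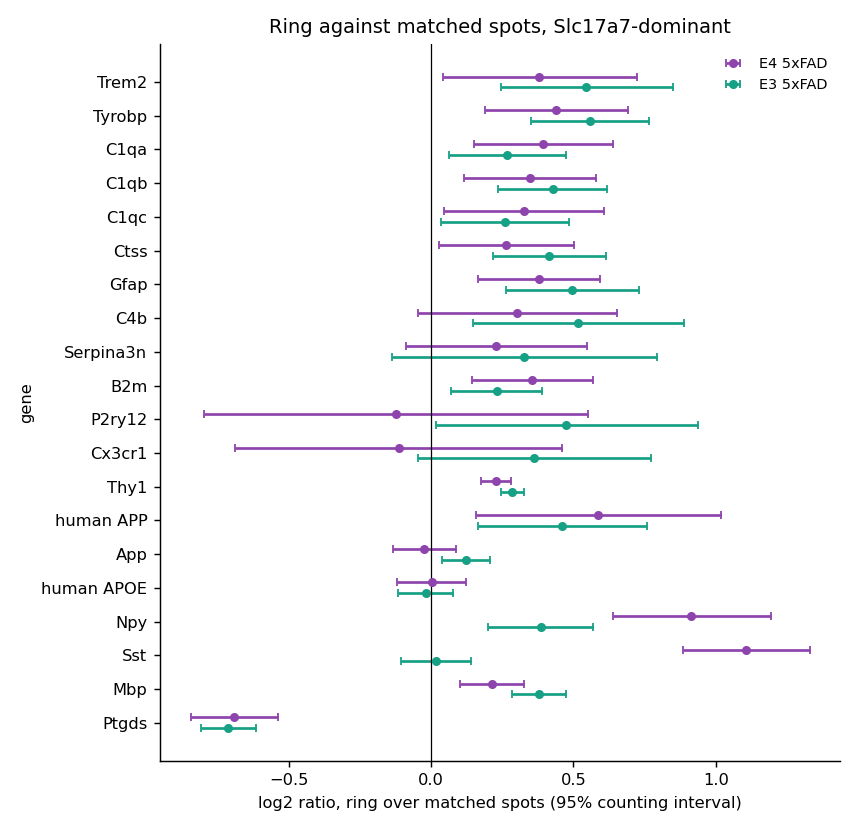
Log2 ratio of ring over matched Slc17a7-dominant spots for 20 genes in the E4 5xFAD (purple) and E3 5xFAD (green) sections, with exact 95% counting intervals. Tyrobp lies at 0.44 and 0.56, Ptgds at -0.69 and -0.71 and human APOE at 0.00 and -0.02, while Sst lies at 1.11 in E4 5xFAD and 0.02 in E3 5xFAD.

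Of the astrocyte genes, Gfap rose by 0.42 ± 0.09 (SE, edgeR adjusted p = 0.00209). It had 344.6 CPM in ring and 265.0 CPM in matched spots of E4 5xFAD, and 183.1 and 129.8 CPM in E3 5xFAD. Serpina3n had 150.0 CPM in ring and 127.8 CPM in matched spots of E4 5xFAD and 45.15 and 36.04 CPM in E3 5xFAD, with intervals that included 0 (adjusted p = 0.830). The list of general astrocyte genes was level, with a log2 ratio of 0.021 in E4 5xFAD and -0.011 in E3 5xFAD, both intervals including 0. Human APOE, made by astrocytes and reactive microglia, had 932.5 CPM in ring and 931.3 CPM in matched spots of E4 5xFAD and 848.6 and 859.5 CPM in E3 5xFAD. The intervals of its log2 ratio, -0.118 to 0.122 in E4 5xFAD and -0.116 to 0.079 in E3 5xFAD, both included 0. They cover counting error only and set no limit on a difference between spots or mice.

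The lists shared by microglia and other cells lay above the median of all genes. The DAM list was at 4296 CPM in ring and 3816 CPM in matched spots of E4 5xFAD and at 3865 and 3385 CPM in E3 5xFAD, log2 ratios of 0.171 (0.114 to 0.228) and 0.192 (0.144 to 0.239). Of its members with 20 or more UMIs, 25 of 33 were above 0 in E4 5xFAD and 23 of 32 in E3 5xFAD. Plaque-induced genes, a list first drawn up from another amyloid mouse, were above 0 for 43 of 52 members in E4 5xFAD and 47 of 53 in E3 5xFAD, with median log2 ratios of 0.211 and 0.259. Lysosomal genes were above 0 for 18 of 23 and 21 of 24 members, and MHC class I genes for 4 of 7 and 9 of 9. The TREM2 signalling list had summed log2 ratios of 0.291 in E4 5xFAD and 0.282 in E3 5xFAD, but its median member stood at -0.020 in E3 5xFAD, where Tyrobp and Trem2 held 470 and 226 of its 1091 ring UMIs. With Cst7-rich at 2 or more UMIs, 4 lists of microglia or the plaque response besides complement turned sign in E4 5xFAD, at -0.182 for MHC class I, -0.087 for plaque-induced, -0.075 for TREM2 signalling and -0.124 for homeostatic microglia. The Fc receptor list was at -0.127 in E3 5xFAD with Cst7-rich at 5 or more UMIs. The homeostatic microglia list was above 0 in 9 of 12 alternatives in E4 5xFAD and 10 of 12 in E3 5xFAD, with lowest values of -0.153 and -0.085. The reactive astrocyte list was above 0 in 11 of 12 alternatives in each section, with lowest values of -0.157 in E4 5xFAD and -0.080 in E3 5xFAD. The DAM and lysosomal lists were above 0 in all 12 alternatives in both sections. Across all genes 2556 of 4824 were above 0 in E4 5xFAD and 3416 of 6511 in E3 5xFAD.

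**Figure D4:**
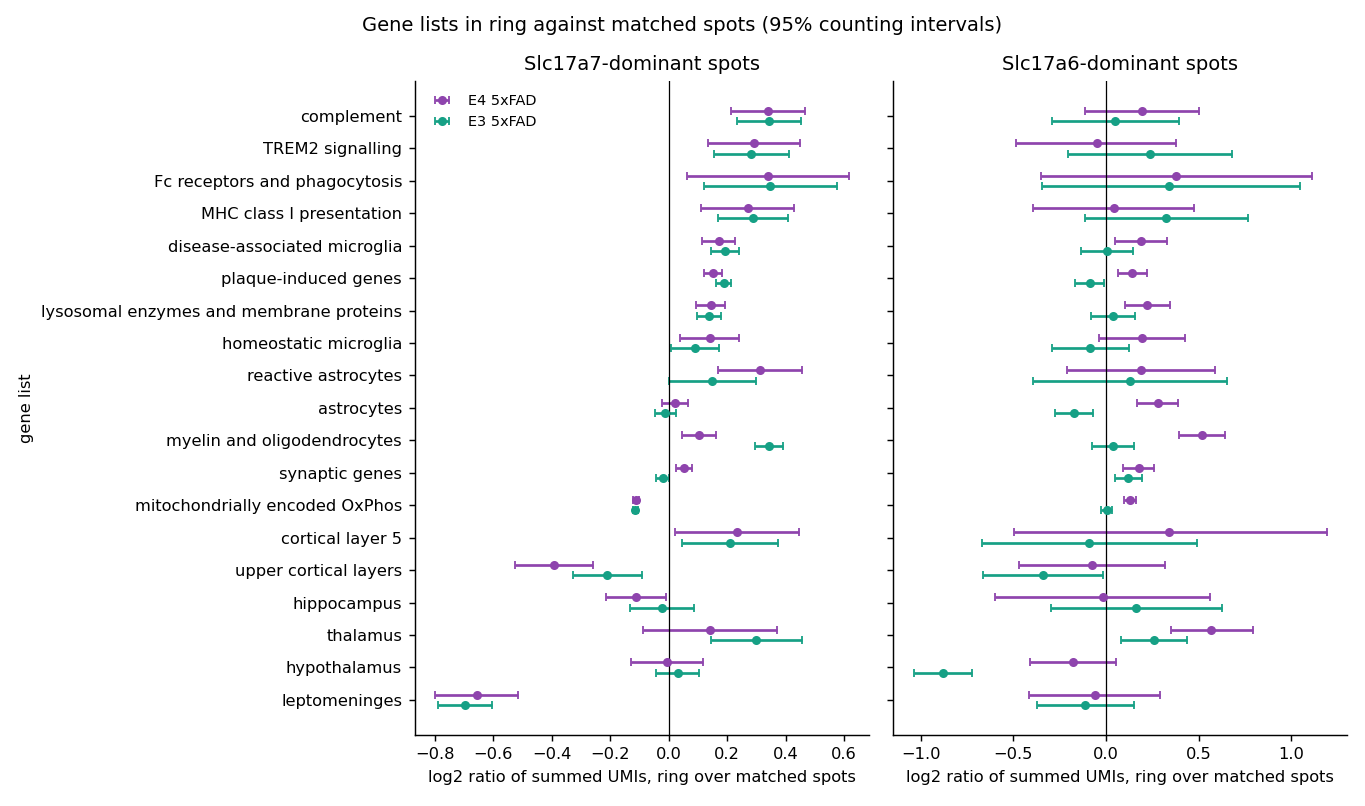
Log2 ratio of summed UMIs of 19 gene lists in ring over matched spots, for Slc17a7-dominant (left) and Slc17a6-dominant (right) spots of the E4 5xFAD (purple) and E3 5xFAD (green) sections, with exact 95% counting intervals. On the left the complement list lies at 0.34 in both sections and the leptomeninges list at -0.66 and -0.70, while on the right the complement intervals include 0.

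Some neuronal and myelin genes were called, while the median members of the synaptic and interneuron lists were near level. Summed log2 ratios of the synaptic list were 0.053 (0.026 to 0.081) in E4 5xFAD and -0.020 (-0.042 to 0.001) in E3 5xFAD. Those of the interneuron list were 0.066 (-0.004 to 0.136) and 0.140 (0.088 to 0.192). Of 30 synaptic genes 0 were called, with 21 above 0 in E4 5xFAD and 15 in E3 5xFAD, and of 12 interneuron genes 2 were called higher (Npy and Sst), with medians of -0.023 in E4 5xFAD and -0.018 in E3 5xFAD. Thy1 rose by 0.24 ± 0.03 (SE, edgeR adjusted p = 3.54e-09), with 5215 CPM in ring and 4447 CPM in matched spots of E4 5xFAD and 5365 and 4401 CPM in E3 5xFAD. Human APP had 96.52 CPM in ring and 64.35 CPM in matched spots of E4 5xFAD and 114.1 and 82.94 CPM in E3 5xFAD (adjusted p = 0.0543), while mouse App had 1091 and 1109 CPM in ring and matched spots of E4 5xFAD and 1221 and 1122 CPM in E3 5xFAD, with a log2 ratio of 0.122 (0.039 to 0.206) there (adjusted p = 0.953). Vxn, Pex5l, Dpy19l1, Pde1a and Prkcd also rose, by 0.40 to 0.64 on the log2 scale, in the same direction in all 17 alternatives each. They were called in 6, 6, 6, 4 and 5 of the 17. The neuropeptide gene Npy had 261.7 CPM in ring and 138.9 CPM in matched spots of E4 5xFAD and 278.5 and 213.3 CPM in E3 5xFAD, a rise of 0.56 ± 0.09 (SE, adjusted p = 3.02e-07). Sst, another interneuron peptide, was called (adjusted p = 4.53e-05) with a difference seen in E4 5xFAD, at 442.7 CPM in ring and 205.7 CPM in matched spots, against 550.4 and 544.0 CPM in E3 5xFAD. Mbp of myelin had 1145 CPM in ring and 987.2 CPM in matched spots of E4 5xFAD and 1059 and 814.5 CPM in E3 5xFAD (adjusted p = 3.14e-05), and both Mbp and Npy turned sign with Cst7-rich set at 2 or more UMIs.

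Of the genes that fell in the ring, Ptgds, a prostaglandin synthase of leptomeninges and oligodendrocytes, had the lowest adjusted p. It had 465.1 CPM in ring and 750.1 CPM in matched spots of E4 5xFAD and 724.9 and 1186 CPM in E3 5xFAD, a change of -0.72 ± 0.06 (SE, adjusted p = 2.96e-34), called in 14 of 17 alternatives. Larger fitted changes came from sparse genes, with Usp40 at -2.03 (3 ring and 10 matched UMIs in E4 5xFAD, 5 and 23 in E3 5xFAD), Ecrg4 at -1.86 and Endou at -1.53, and from Cdh22 at -0.83, which had 19.94 CPM in ring and 40.64 CPM in matched spots of E4 5xFAD and 31.45 and 51.83 CPM in E3 5xFAD. Ttr (transthyretin), a gene of the choroid plexus, was called lower (-0.44, adjusted p = 6.61e-10) with 1118 CPM in ring and 1760 CPM in matched spots of E4 5xFAD, against 216.6 and 210.8 CPM in E3 5xFAD, and was called higher with Cst7-rich at 2 or more UMIs. The leptomeninges list, of which Ptgds is a member, was at 544.8 CPM in ring and 858.5 CPM in matched spots of E4 5xFAD and 801.0 and 1298 CPM in E3 5xFAD. Rasgrf2 of the upper cortical layers fell by 0.59 on the log2 scale (adjusted p = 0.000227). The upper-layer list was at 658.1 CPM in ring and 863.6 CPM in matched spots of E4 5xFAD and at 557.5 and 644.7 CPM in E3 5xFAD, while the layer 5 list was at 333.4 and 283.6 CPM in E4 5xFAD and 332.3 and 287.3 CPM in E3 5xFAD. The choroid plexus list was at 1418 CPM in ring and 2157 CPM in matched spots of E4 5xFAD, a log2 ratio of -0.606, and at 373.3 and 348.0 CPM in E3 5xFAD. The thalamus list had log2 ratios of 0.141 (-0.088 to 0.370) in E4 5xFAD and 0.300 (0.144 to 0.456) in E3 5xFAD. The myelin list had 0.104 (0.047 to 0.161) in E4 5xFAD and 0.343 (0.294 to 0.391) in E3 5xFAD, the size of the complement ratio there. Ring and matched spots thus still differed in markers of cortical depth, leptomeninges, choroid plexus, thalamus and myelin after pairing, and the part of these in the other results was not tested.

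Of the 13 mitochondrially encoded genes, 9 were called lower in the Slc17a7-dominant ring by edgeR and none higher. Among all genes 18 of 11103 were called lower (0.162%). The ratio was above 0 for 1 of the 13 in E4 5xFAD and 0 in E3 5xFAD. Their sum was 99485 CPM in ring and 107488 CPM in matched spots of E4 5xFAD and 119372 and 129232 CPM in E3 5xFAD, log2 ratios of -0.112 and -0.115. The nuclear genes of oxidative phosphorylation had log2 ratios of 0.023 and 0.007. Against matched spots at least 4 steps away, 7 of the called mitochondrial genes turned sign, with log2 values of 0.02 to 0.07. In E4 5xFAD the summed ratio was above 0 in 2 of 12 alternatives, both with counting intervals above 0, and reached 0.13. In E3 5xFAD it was above 0 in 0 of 12.

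Against matched spots, Slc17a6-dominant spots gave no microglial call in the main setting. In edgeR 4 of 4264 genes were higher in the ring (0.0938%) and 6 lower (0.141%), with 258 at an unadjusted p under 0.05, and DESeq2 called 0 in either direction. In E4 5xFAD 11 of 533 genes were at least 1.5-fold higher (2.06%) and 14 lower (2.63%). In E3 5xFAD 8 of 761 were higher (1.05%) and 13 lower (1.71%). None of these was in the complement or DAM list, but only 1 complement and 3 DAM genes were counted in each section. So few genes cannot show whether either list lacked changes of that size. Complement was at 1106 CPM in ring and 966.5 CPM in matched spots of E4 5xFAD and at 682.9 and 659.3 CPM in E3 5xFAD, log2 ratios of 0.195 (-0.115 to 0.505) and 0.051 (-0.291 to 0.394). These intervals hold the ratio of 0.34 of the Slc17a7-dominant ring as well as 0, so the class difference was not detectable at this depth of 12 and 16 pairs. Tyrobp had 178.2 CPM in ring and 231.7 CPM in matched spots of E4 5xFAD and 141.9 and 120.3 CPM in E3 5xFAD, and its difference between the classes had an adjusted p of 0.899. Against all spots at least 3 steps away, Tyrobp was called higher (0.819, edgeR adjusted p = 0.000180), where 448 of 7845 genes were higher. The summed complement ratio was above 0 in 9 of 12 other settings in E4 5xFAD and 12 of 12 in E3 5xFAD. Its counting interval was above 0 in 4 and 6 of them.

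The 10 genes called in Slc17a6-dominant spots were Pcp4, Prkcd, Amotl1 and Stox2, which rose, and Calb2, Gap43, Enpp2, Ttr, Pmch and Hcrt, which fell. Pcp4, a calmodulin-binding protein, had 2046 CPM in ring and 1243 CPM in matched spots of E4 5xFAD and 3211 and 2016 CPM in E3 5xFAD, a rise of 0.67 ± 0.12 (SE, edgeR adjusted p = 3.31e-05). Prkcd, a kinase gene of thalamic relay neurons, had 786.5 CPM in ring and 390.0 CPM in matched spots of E4 5xFAD and 1104 and 765.2 CPM in E3 5xFAD. Calb2 (calretinin) had 374.8 CPM in ring and 898.7 CPM in matched spots of E4 5xFAD and 110.9 and 543.8 CPM in E3 5xFAD, and was lower in all 17 alternatives. The thalamus list was higher and the hypothalamus list lower in the ring, with log2 ratios of 0.57 and -0.18 in E4 5xFAD and 0.26 and -0.88 in E3 5xFAD. Ttr had 3828 CPM in ring and 21833 CPM in matched spots of E4 5xFAD, against 270.5 and 264.7 CPM in E3 5xFAD, and the choroid plexus list had a log2 ratio of -2.418 in E4 5xFAD. Enpp2 (autotaxin), also a choroid plexus gene, had 669.7 CPM in ring and 2357 CPM in matched spots of E4 5xFAD, against 164.1 and 182.9 CPM in E3 5xFAD. Ttr stood above 0 in 3 of 17 alternatives and Pmch in 2. The hypothalamic peptide gene Pmch had 319.3 CPM in ring and 1747 CPM in matched spots of E3 5xFAD and no UMI in either set of E4 5xFAD. The part of these regional differences in the other values was not tested.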

How the data were processed

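Gene counts per spot were deposited by the authors as raw UMI counts (a filtered Visium matrix per section, reads aligned to mm10 with Space Ranger 1.3.0 and STAR 2.5.1b per the authors' methods), with array positions and a tissue mask. The matrix headers name Space Ranger 2.0.0 for E3 5xFAD and 1.2.2 for the other sections. No source used here says why the versions differ. Only mouse genes and human APOE and APP were used, and Clec7a was not analysed here.

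Spots under the mask with a barcode entered. In E4 5xFAD the mask and the matrix cover different spots, so distances near its edges can be too long. The ring rule, gene lists, matched comparison and tests were chosen with earlier results of these data known, and the matched comparison after the far spots had been counted. For matching, 2000 variable genes were reduced to 20 principal components and split into 15 k-means groups (scikit-learn 1.9.0). Microglial, astrocyte, plaque, mitochondrial and transgene genes, among others, were left out of them, while myelin genes were not. Pairs were chosen by smallest array distance.

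UMIs were summed per section, class and spot set. The quasi-likelihood test of edgeR 4.0.16 (R 4.3.3, TMM, filterByExpr, Benjamini-Hochberg) had the section as a block. It used 4 summed libraries. Cst7, Slc17a7 and Slc17a6 counted in totals but were not tested. DESeq2 1.42.0 was an alternative. Within a section, CPM had exact Poisson 95% intervals, and log2 ratios exact conditional binomial 95% intervals with 0.5 UMI in place of 0. A list's median took members with 20 or more UMIs. Intervals cover counting error only. The fits were tested on simulated data with known changes and a preset spread between libraries. Of genes changed 1.5-fold, edgeR recovered 28 of 65 in Slc17a7-dominant spots (43.1%) and 6 of 58 in Slc17a6-dominant spots (10.3%). At 2-fold it recovered 52 of 65 and 30 of 54. DESeq2 recovered 3 of 65 and 0 of 58 at 1.5-fold, so small changes could go uncalled. Named genes were, per class, up to 15 called genes in each direction by fold change with the same sign in both sections, members of each list with the highest level or change, and fixed genes such as Gfap, Tyrobp and Thy1. Usp40, Ecrg4 and Cdh22 are called genes of that rule, and Endou was named after its values were seen.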

Additional observations from a re-analysis of the deposited data

Results flagged for a closer look

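Cst7-rich spots were also found outside the 5xFAD sections, 4 in E4 aged and 1 in E3 aged, against 0 in both young sections. They entered no comparison.

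The effect of the ring differed between Slc17a6-dominant and Slc17a7-dominant spots for 10 of 9893 genes in an edgeR fit of the difference itself against matched spots (535 had an unadjusted p under 0.05). As Slc17a6-dominant minus Slc17a7-dominant log2 changes, Ttr stood at -1.85 (adjusted p = 1.29e-40), Pmch at -2.45 (4.82e-23), Enpp2 at -1.50 (1.39e-12) and Gap43 at -0.85 (0.00130). Pcp4 stood at 0.53 (0.00233), Calb2 at -1.19, Stox2 at 2.35 and Ptgds at 0.65 (each 0.00575), Tmsb10 at -0.56 (0.00893) and Tac2 at 3.67 (0.0478). None of these is a member of the complement list.

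In Slc17a6-dominant spots 2 lists had opposite signs in the sections. The astrocyte list had a log2 ratio of 0.28 in E4 5xFAD and -0.17 in E3 5xFAD, and the plaque-induced list of 0.14 in E4 5xFAD and -0.09 in E3 5xFAD. Neither difference was tested, since each section is 1 mouse.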

How the results depend on the processing

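No paired analysis was possible because each group has 1 section, so replicate numbers pair no mice. The fit against matched spots does pair a ring and a matched library of each section through the section block, and the counts without that block are given below. With 1 mouse per genotype, 4 summed libraries and 1 residual degree of freedom, the calls depend on the test and the choice of comparison spots, and the cause of each change below was not tested.

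Against far spots in Slc17a7-dominant spots, 3 genes were higher, but 5 with DESeq2 size factors or with no scaling, 1 with DESeq2's Wald test, 7 with every gene, 21 without the section block, 6 with Cst7-rich at 5 or more UMIs, 9 with no minimum of UMIs, 0 at 8000 UMIs or with complete neighbourhoods, and 30 with far spots free of Cst7 within 3 steps. There 21 were lower, but 11 with the Wald test or complete neighbourhoods, 51 with every gene, 63 without the block, 33 with Cst7-rich at 2 or more UMIs, and 8 with far spots free of Cst7 within 3 steps or lying within 6 steps. The Slc17a6-dominant far test could be fitted only with no minimum of UMIs, with 0 higher and 1 lower of 5959.

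Against matched spots in Slc17a7-dominant spots, 14 were higher, but 0 with the Wald test, without the block or with matched spots touching no Cst7-positive spot, 1 with Cst7-rich at 5, 4 and 3 with 8 and 25 groups, and 6 with distances over every barcode. There 18 were lower, but 1 with the Wald test, 0 without the block or touching none, 2 with Cst7-rich at 5, 10 with complete neighbourhoods, 4 at 4 or more steps, 62 with all spots, 47 with pairs by distance only, 5 and 2 with 8 and 25 groups, and 7 with pairs within 1.5-fold in UMIs or distances over every barcode. In Slc17a6-dominant spots 4 were higher, but 0 with the Wald test, without the block or with Cst7-rich at 2, 1 with Cst7-rich at 5 or every barcode, 448 with all spots, and 2 with distance only, 8 or 25 groups. There 6 were lower, but 0 with the Wald test, 1 without the block or with Cst7-rich at 2, 2 at 4 or more steps or with 8 groups, and 395 with all spots.

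The complement list's median, averaged over the 2 sections, 0.394 in Slc17a7-dominant spots, was -0.037 with Cst7-rich at 2, 0.241 at 5, 0.544 with all spots, and 0.26 and 0.25 with 8 and 25 groups. It was 0.365 and 0.422 when leaving out 1 section.

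Signs turned as follows (log2). Far spots: Ace 0.014, Car12 0.176, Enpp2 0.998 and Ttr 0.565 (within 6 steps), Hcrt 0.939 and Pmch 0.113 (free of Cst7 within 3 steps). Matched Slc17a7-dominant spots: Camk2n1 0.091 and Lmo3 0.042 (distance only), 0.181 and 0.149 (all spots), and Ecrg4 0.85, Mbp -0.099, Npy -0.042, Endou 0.355 and Ttr 0.624 (Cst7-rich at 2). At 4 or more steps: mt-Atp6 0.029, mt-Co1 0.037, mt-Co2 0.071, mt-Co3 0.043, mt-Cytb 0.024, mt-Nd2 0.051 and mt-Nd4 0.053. Touching no Cst7-positive spot: mt-Co1 0.020, mt-Co2 0.049, mt-Cytb 0.022, mt-Nd2 0.012, mt-Nd3 0.037 and mt-Nd4 0.044. Matched Slc17a6-dominant spots: Enpp2 0.404 (4 or more steps) and 0.053 (Cst7-rich at 2), Stox2 -0.085 (Cst7-rich at 2), Tyrobp 0.819 (all spots, called higher), Ttr 0.768 (4 or more steps), 0.520 (touching none) and 0.726 (Cst7-rich at 2), and Pmch 0.374 (25 groups) and 0.175 (8000 UMIs). Leaving out 1 section, values ran from -3.914 to 0.853 for Enpp2 and -6.531 to 0.141 for Ttr (far), and for Ttr from -0.655 to 0.039 in Slc17a7-dominant and -2.512 to 0.031 in Slc17a6-dominant matched spots. Tyrobp, C1qb, Gfap, Thy1 and Ptgds kept their direction in all 17 alternatives in Slc17a7-dominant spots.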
